A study of Homo sapiens with 3 samples.

Results

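BMAL1 and MAX binding was examined at 10 genes that make or use nicotinamide adenine dinucleotide (NAD), of 20098 annotated protein-coding genes. The genes were NAMPT, NAPRT, NMNAT1, NMNAT2 and NMNAT3 of NAD salvage, the sirtuins SIRT1, SIRT3 and SIRT6, and the NAD-using enzymes PARP1 and NADK. A listed peak was assigned to a gene when its summit lay in the gene body or within 20 kb of any of the gene's transcription start sites (TSSs) in GENCODE on hg19. The rule used gene names and positions and no binding value, although the genes were named with earlier results of these data known. By this rule 13 of the 13650 MAX peaks and 2 of the 756 BMAL1 peaks were assigned.

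The chromatin came from MDA-MB-231, an established human triple-negative breast cancer line, grown without a stated treatment or circadian synchronisation and cross-linked for 10 min in 1% formaldehyde. In the BMAL1 group chromatin was precipitated with 4 µg of anti-BMAL1 antibody, in the MAX group with 4 µg of anti-MAX antibody, and the input group was chromatin that was not precipitated. Each group held 1 library, and the libraries held 13866783 (BMAL1), 11545865 (MAX) and 29308882 (input) tags, so no value has a replicate error, and no test between the antibodies or between genes was possible. The pileup of a peak is the number of extended fragments over its summit, and the fold enrichment is the ratio of that pileup to the local background that the peak caller estimated from the input. Intervals in brackets are 95% intervals, exact Poisson for pileups, fold enrichments and densities and Wilson for shares. The Poisson intervals cover counting error only. The Wilson intervals treat the genes or peaks counted as independent draws. The genes were chosen by name, so a share inside or outside such an interval is a description and no test. For a fold enrichment the background was taken as fixed, so the counting error of the input is not covered.

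NAD is recycled from nicotinamide in a short pathway in which NAMPT makes nicotinamide mononucleotide and the NMNAT enzymes convert it to NAD, while NAPRT starts a parallel route from nicotinic acid. Sirtuins and poly(ADP-ribose) polymerases break NAD down as they act, and NADK phosphorylates it to NADP. BMAL1, with its partner CLOCK, is the activator of the circadian clock, and Nampt is a known clock-controlled gene in mouse tissues whose product feeds the sirtuin SIRT1, which in turn acts on clock proteins. MAX is the obligate partner of MYC and of the MXD and MNT repressors, and its dimers and CLOCK-BMAL1 recognise the same DNA element, the E-box CACGTG.

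The sequences under the peaks are shown because the genes differed in whether an E-box lay there. All are read 5′ to 3′ on the plus strand of hg19, and capitals mark the 4 kinds of element searched on both strands, each with its reverse complement. The first was the E-box CACGTG, which is its own reverse complement. The second was the variant CACGTT, which reads AACGTG on the other strand. The third was the variant CACGCG, which reads CGCGTG on the other strand. The last was the variant CATGTG, which reads CACATG on the other strand. Words of different kinds may overlap in part, and each kind was counted on its own. The windows at SIRT1, NMNAT2 and NADK are 150 bases centred on the summit, the SIRT3 stretch is 90 bases centred on it, and the shorter lines are 30 bases around the element nearest a summit.
SIRT1 promoter MAX summit, chr10:69644236-69644385: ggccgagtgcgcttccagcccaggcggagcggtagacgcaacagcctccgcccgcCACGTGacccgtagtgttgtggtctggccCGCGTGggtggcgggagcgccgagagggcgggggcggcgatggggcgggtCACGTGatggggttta
NAMPT promoter MAX element, chr7:105925732-105925761: gggcagccccggCGCGTGacccgggcgctt
PARP1 promoter MAX element, chr1:226595692-226595721: gcctcgccgcctCGCGTGcgctcacccagc
SIRT3 promoter MAX summit, chr11:236864-236953: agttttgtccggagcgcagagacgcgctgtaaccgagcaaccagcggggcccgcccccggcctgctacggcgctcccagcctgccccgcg
NMNAT2 intragenic MAX summit, chr1:183248451-183248600: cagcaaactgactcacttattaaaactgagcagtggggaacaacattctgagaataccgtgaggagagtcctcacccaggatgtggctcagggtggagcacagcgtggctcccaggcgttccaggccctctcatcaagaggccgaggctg
NMNAT2 E-box in the weaker MAX peak, chr1:183250976-183251005: taaaaaaggggaCACGTGagccccagcgcc
NADK upstream MAX summit, chr1:1714325-1714474: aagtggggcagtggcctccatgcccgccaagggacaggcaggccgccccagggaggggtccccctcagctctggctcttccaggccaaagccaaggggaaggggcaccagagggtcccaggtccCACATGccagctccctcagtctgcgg
NADK intronic BMAL1 summit, chr1:1695781-1695930: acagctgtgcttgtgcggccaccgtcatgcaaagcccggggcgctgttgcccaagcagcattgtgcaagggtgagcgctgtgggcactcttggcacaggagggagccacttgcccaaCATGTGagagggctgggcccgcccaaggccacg

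At SIRT1 a pair of E-boxes and a CGCGTG stood within 1 summit window, at NAMPT and PARP1 the nearest element was CGCGTG, and the SIRT3 stretch and the stronger NMNAT2 window held none of the 4 kinds. In the 200 bp centred on the summit, CACGTG was present in 4 of the 13 MAX peaks (30.8% [12.7, 57.6]). The share of all MAX peaks, 21.2%, lay within this interval. The 4 were 1 at SIRT1 and 3 in the NAPRT window. Of these 3, only the peak that overlapped a BMAL1 peak had a NAPRT TSS as its nearest protein-coding TSS, and the others lay nearest to GSDMD and EEF1D. CACGTG was present in 1 of the 2 BMAL1 peaks, at NAPRT, against 75.3% of all BMAL1 peaks. Counting all 4 kinds, 7 of the 13 MAX windows held an element, against 48.9% of the list, and both BMAL1 windows did, against 89.3%. Over all windows CACGTT or AACGTG stood in 6.04% of MAX and 10.4% of BMAL1 peaks, CACGCG or CGCGTG in 13.2% and 13.5%, and CATGTG or CACATG in 16.7% and 24.7%. A match to these letters describes the window and does not show which element, if any, was bound.

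MAX peaks were found at 7 of the 10 genes, which is 70.0% [39.7, 89.2], and by the same rule at 54.9% of all protein-coding genes. The 7 were NAMPT, NAPRT, NMNAT2, SIRT1, SIRT3, PARP1 and NADK, and NMNAT1, NMNAT3 and SIRT6 had none. A promoter peak, with at least 1 bp within 300 bp of a TSS of the gene, was listed for MAX at 4 of the 10 genes (40.0% [16.8, 68.7]), namely NAMPT, SIRT1, SIRT3 and PARP1, and at 33.8% of all protein-coding genes. Both shares of all genes lay within the intervals of the 10 genes.

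BMAL1 peaks were found at 2 of the 10 genes, NAPRT and NADK (20.0% [5.67, 51]), and by the same rule at 4.99% of all protein-coding genes. Neither was a promoter peak. The share of the 10 genes with a BMAL1 promoter peak was therefore 0, for which the interval reached 27.8%, and 1.64% of all protein-coding genes had one. The 4.99% of all genes lay just below the interval of the 10 genes, which rests on 2 peaks. That interval treats genes chosen by name as independent draws, so no enrichment is read from it. With peaks of p of 1e-12 or lower alone, NAPRT kept its BMAL1 peak and NADK did not, and with promoters of 1 kb the NAPRT peak counted as a promoter peak.

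**Figure D1:**
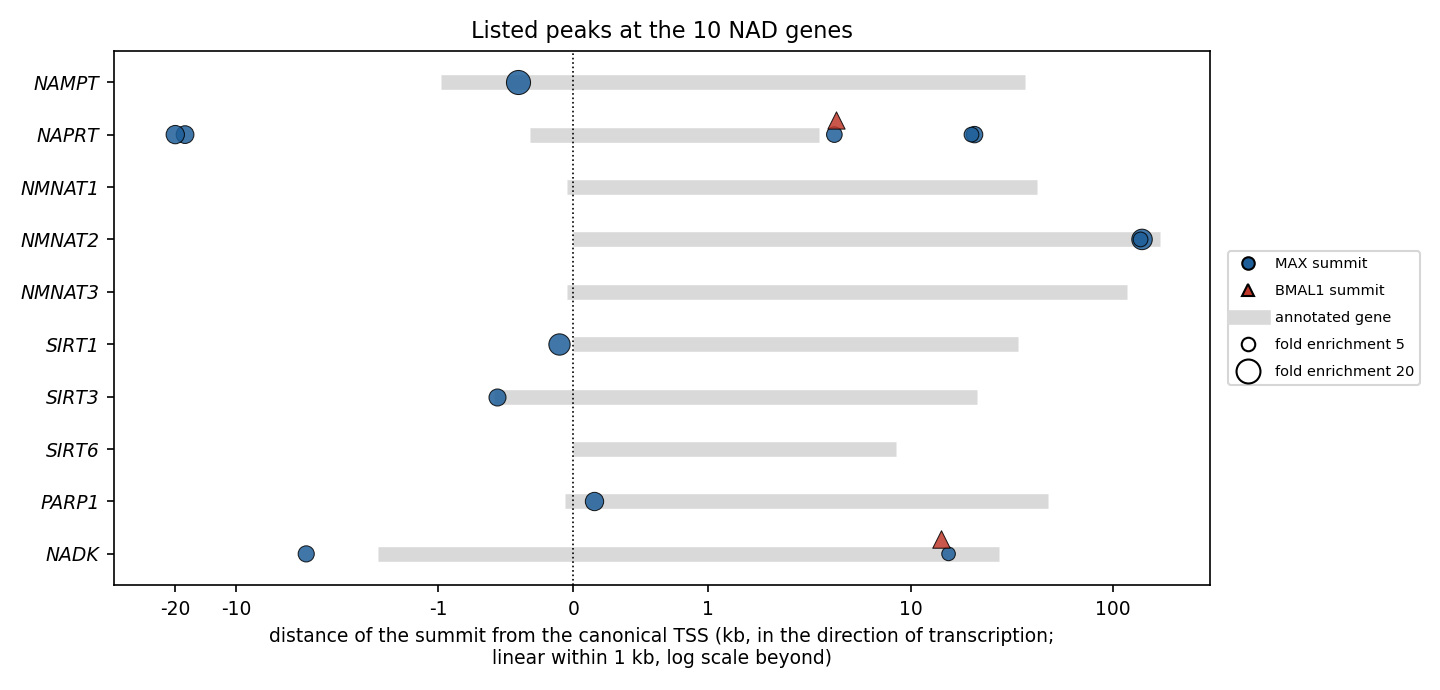
Summits of the 13 MAX peaks (blue circles) and 2 BMAL1 peaks (red triangles) at the 10 genes, by distance from the canonical TSS in kb along the direction of transcription (linear within 1 kb, log scale beyond), with grey bars for the annotated genes and symbol size for fold enrichment. The summits at NAMPT, SIRT1, SIRT3 and PARP1 stand within 1 kb of the dotted TSS line, and the BMAL1 summits stand 4258 bp downstream of it at NAPRT and 14053 bp downstream at NADK.

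The fold enrichment of the 13 MAX peaks ran from 5.08 to 20.27 with a median of 9.11, and the median of the whole MAX list was 9.73. Of the 13 peaks, 6 were above the median of the list. Both BMAL1 peaks, at 9.39 and 9.74, were below the median of 10.3 of the BMAL1 list. The order of the MAX peaks was led by NAMPT, SIRT1 and the stronger peak of NMNAT2, whose intervals overlapped each other, and it ended with a weak peak in an intron of NADK. With backgrounds held fixed, the fold enrichment interval of the NAMPT peak [13.2, 29.7] lay above those of 5 peaks at NAPRT, NMNAT2 and NADK. Those intervals ended at 12.8 or lower. By pileup none of the 5 was separated from NAMPT, whose pileup interval [17.0, 38.1] overlapped all of theirs. Among the 5, the NAPRT peak shared with BMAL1 held more fragments than NAMPT, 29 against 26, over a higher background. Neighbours in the order were never separated by their intervals.

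**Figure D2:**
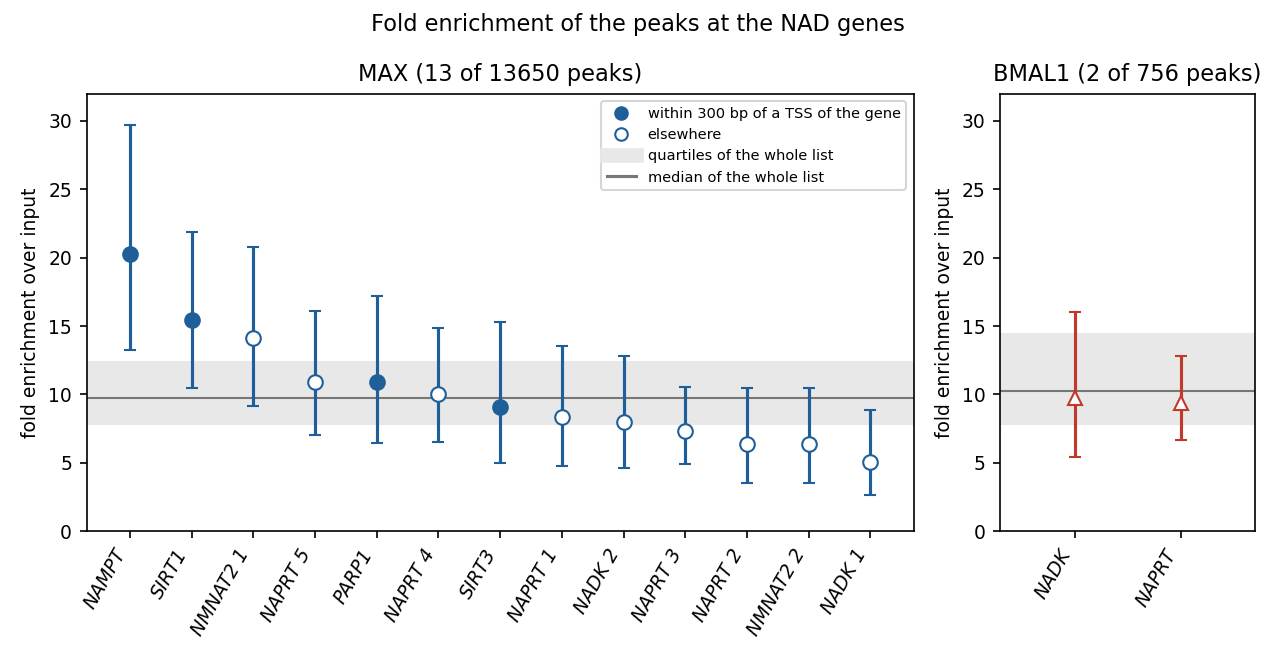
Fold enrichment over input of each peak at the 10 genes (points, numbered by position where a gene has several), with exact Poisson 95% counting intervals (bars), against the median (line) and quartiles (band) of the whole list, for MAX on the left and BMAL1 on the right. Filled points are peaks within 300 bp of a TSS of the gene, and they include the pair of highest MAX peaks, NAMPT at 20.27 and SIRT1 at 15.43.

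NAMPT, the rate-limiting enzyme of the salvage pathway (ENSG00000105835, chr7:105888744-105926412, minus strand), had the MAX peak of highest fold enrichment among the 10 genes. The peak at chr7:105925404-105926173 held 26 fragments at its summit [17.0, 38.1] over a background of 1.28, and its fold enrichment of 20.27 stood at percentile 96.2 of the MAX list. The background was the genome-wide level of the MAX library, so the local input did not raise it. The summit lay 40 bp downstream of an alternative TSS, in the UTR of that transcript, and 413 bp upstream of the canonical TSS. Another annotated gene, ENSG00000273320, also had a TSS within 1 kb of the summit.

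The NAMPT summit window was rich in GC (71.5%) and held 21 CpG dinucleotides, against medians of 60.5% and 10 over all MAX windows. The whole peak held no CACGTG and 4 copies of CACGCG or CGCGTG, the nearest 96 bp from the summit. The window of the gene did hold 4 E-boxes, but none lay in a listed peak. The nearest listed BMAL1 summit was 882681 bp from a NAMPT TSS, closest to HBP1, a transcriptional repressor gene, with a fold enrichment of 5.99. No BMAL1 peak was therefore listed at the gene best known as a clock target in NAD salvage, at a depth where the lowest listed BMAL1 pileup was 12 fragments.

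NAPRT, the first enzyme of the nicotinic acid route (ENSG00000147813, chr8:144656955-144660819, minus strand), was the only one of the 10 genes where a BMAL1 and a MAX peak overlapped. The BMAL1 peak at chr8:144656019-144656573 held 40 fragments [28.6, 54.5] over a background of 4.26, a fold enrichment of 9.39 [6.71, 12.8]. The MAX peak at chr8:144656071-144656556 held 29 fragments [19.4, 41.6] over a background of 3.94, a fold enrichment of 7.36 [4.93, 10.6]. The summits were 59 bp apart, and scaled to 1000000 tags the pileups were 2.88 for BMAL1 and 2.51 for MAX.

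This shared site lay beyond the 3′ end of NAPRT, not at its canonical promoter. The BMAL1 summit was 713 bp past the end of the gene and 1251 bp downstream of its nearest alternative TSS, and a noncoding gene, ENSG00000255050, had a TSS within 1 kb. An E-box CACGTG at chr8:144656327-144656332 stood 28 bp from the MAX summit and 88 bp from the BMAL1 summit, and a CACGTT at chr8:144656254-144656259 stood 44 bp and 14 bp from them. No sequence is printed for this site.

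The height and the fold enrichment ranked the NAPRT site differently. By pileup the BMAL1 peak stood at percentile 78.7 of its list and the MAX peak at percentile 87.6, but by fold enrichment they stood at percentiles 41.1 and 18.6. The input background at the site was 4.26 for BMAL1 and 3.94 for MAX, where the medians over all peaks were 2.37 and 1.87. Backgrounds were high along the chromosome, with medians of 3.26 over the BMAL1 peaks and 2.36 over the MAX peaks of chromosome 8, against 1.99 and 1.77 on chromosome 1. The part of the input level in the low fold enrichment was not tested.

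**Figure D3:**
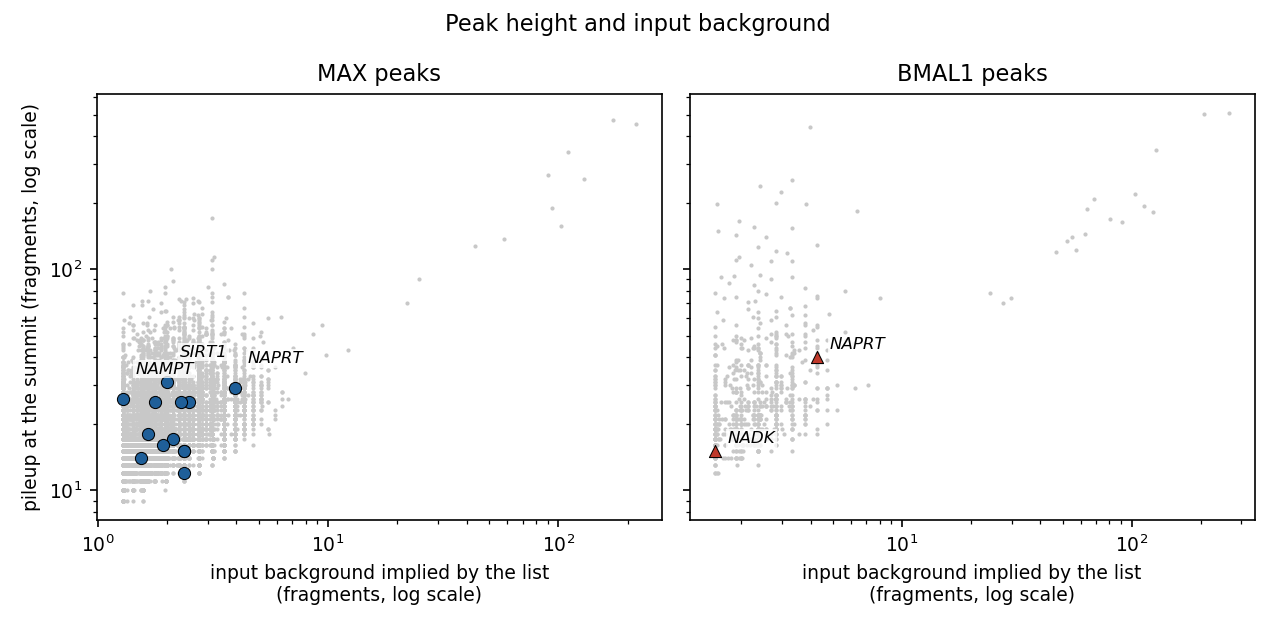
Pileup at the summit (fragments, log scale) against the input background implied by the list (fragments, log scale) for all MAX peaks on the left and all BMAL1 peaks on the right (grey), with the peaks at the 10 genes in colour and some of them named. The overlapping NAPRT peaks of both factors, which carry the gene's name, lie at backgrounds of 4.26 (BMAL1) and 3.94 (MAX), to the right of the other coloured points, while the NADK BMAL1 peak and the NAMPT MAX peak lie at the lowest background of their lists.

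The other 4 MAX peaks in the NAPRT window lay nearest to the TSSs of other genes, and they are counted here only by the distance rule. Those at chr8:144639624-144639953 and chr8:144640307-144640804, with fold enrichments of 8.36 and 6.35, had summits 249 bp and 2 bp from TSSs of GSDMD, the pore-forming protein of pyroptosis. The peak at chr8:144678154-144679443 reached 10.07 and lay 20 bp from a TSS of EEF1D, a translation elongation factor subunit. The peak at chr8:144680280-144680637 reached 10.90 and lay 414 bp from a TSS of TIGD5. Counting TSSs of protein-coding genes only, 9 of all 13 MAX peaks lay nearest to a TSS of the NAD gene itself, and these 4 were the exceptions. The shared NAPRT peak was among the 9, although the noncoding gene ENSG00000255050 had a TSS within 1 kb, nearer than the NAPRT TSS at 1192 bp.

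The NMNAT genes encode the NAD-forming enzymes of the nucleus (NMNAT1), of the Golgi and cytosol of neurons (NMNAT2) and of mitochondria (NMNAT3), and only NMNAT2 had a peak. Its stronger MAX peak, at chr1:183248277-183248767, held 25 fragments [16.2, 36.9] and reached a fold enrichment of 14.10 [9.12, 20.8], percentile 84.4 of the list. The summit lay in an intron, 138989 bp from the canonical TSS of this gene (ENSG00000157064, chr1:183217372-183387515, minus strand) but 706 bp upstream of an internal TSS. None of the 4 kinds of element stood in its 200 bp window, and a CACATG lay 242 bp from the summit at the edge of the peak.

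The weaker NMNAT2 peak, at chr1:183250741-183251050, held 15 fragments [8.40, 24.7] and reached 6.35 [3.55, 10.5], percentile 8.04. It did hold an E-box, 154 bp from the summit and so outside the 200 bp window. The intervals of the 2 NMNAT2 peaks overlapped. No peak of either factor was near the canonical NMNAT2 promoter, which held no CACGTG and had a GC content of 58.2%, the lowest of the 10 genes.

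NMNAT1 (ENSG00000173614, chr1:10003486-10045559, plus strand) and NMNAT3 (ENSG00000163864, chr3:139279022-139396859, minus strand) had no peak of either factor. The MAX summit nearest to a TSS of NMNAT1 was 42929 bp away, closest to CTNNBIP1, an inhibitor of beta-catenin, with a fold enrichment of 7.25. For NMNAT3 the distance was 246159 bp, to a peak of 12.69 closest to MRPS22, a mitochondrial ribosomal protein gene. The nearest BMAL1 summits were 994912 bp and 1263586 bp away. Their canonical promoters, like that of NMNAT2, were lower in GC and CpG than the other promoters of the 10 genes, with 35 CpG at NMNAT1, 33 at NMNAT2 and 41 at NMNAT3, where the median of all promoters was 46 and the other 7 held between 54 and 94.

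SIRT1, the nuclear deacetylase that acts on clock proteins (ENSG00000096717, chr10:69644414-69678147, plus strand), had a MAX peak at its promoter over the E-box pair printed above. The peak at chr10:69644103-69644557 held 31 fragments [21.1, 44] over a background of 2.01, a fold enrichment of 15.43 [10.5, 21.9] at percentile 88.5 of the list. The pileup was the highest of the 13 MAX peaks, and the fold enrichment was second to NAMPT.

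The SIRT1 summit lay 103 bp upstream of the TSS. The E-boxes at chr10:69644291-69644296 and chr10:69644370-69644375 stood 18 bp and 62 bp from the summit on either side of it, and the CGCGTG at chr10:69644320-69644325 stood 12 bp away. SIRT1 was the only one of the 10 genes with an E-box under a promoter MAX peak. The summit window held 27 CpG, the most of the 13 MAX windows, with 74.0% GC. The nearest listed BMAL1 summit was 3962330 bp from a SIRT1 TSS, so the E-box pair carried a MAX peak and no BMAL1 peak.

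SIRT3, the main mitochondrial deacetylase (ENSG00000142082, chr11:215030-236931, minus strand), had a weaker MAX peak at its promoter. The peak at chr11:236749-237087 held 14 fragments [7.65, 23.5] over a background of 1.54, a fold enrichment of 9.11 [4.98, 15.3] at percentile 41.0. Its summit was 22 bp downstream of an alternative TSS and 567 bp upstream of the canonical one, and PSMD13, a proteasome subunit gene, had a TSS within 1 kb, so a short-range peak such as this cannot be given to 1 of the 2 genes.

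The SIRT3 peak held none of the 4 kinds of element over its whole length, although its window held 69.5% GC and 24 CpG, close to the values at NAMPT. The nearest BMAL1 summit was 470868 bp from a SIRT3 TSS, closest to DEAF1, a transcription factor gene, with a fold enrichment of 14.8. The intervals of the SIRT3 and SIRT1 fold enrichments overlapped, so their order is not separated by counting error.

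SIRT6, the chromatin-bound sirtuin of DNA repair and telomeres (ENSG00000077463, chr19:4174106-4182563, minus strand), had no peak of either factor. The nearest MAX summit was 55183 bp from a SIRT6 TSS, closest to MAP2K2, a kinase of the ERK cascade, with a fold enrichment of 8.04. The nearest BMAL1 summit was 1202075 bp away. The window of SIRT6 held 8 E-boxes and its canonical promoter held none.

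PARP1, the main poly(ADP-ribose) polymerase of the DNA damage response and a large consumer of NAD (ENSG00000143799, chr1:226547911-226595855, minus strand), had 1 MAX peak at its promoter. The peak at chr1:226595489-226595803 held 18 fragments [10.7, 28.4] over a background of 1.65, a fold enrichment of 10.88 [6.45, 17.2] at percentile 62.2. The summit lay in the UTR, 40 bp downstream of the nearest TSS and 151 bp downstream of the canonical TSS. The only element in the peak was the printed CGCGTG, 64 bp from the summit, and none of the 11 E-boxes of the PARP1 window lay in a peak. The nearest BMAL1 summit was 3911046 bp away.

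NADK, the cytosolic NAD kinase that makes NADP (ENSG00000008130, chr1:1682671-1711896, minus strand), carried peaks of both factors that did not overlap. The BMAL1 peak at chr1:1695677-1695980 held 15 fragments [8.40, 24.7] over the genome-wide background of 1.54, a fold enrichment of 9.74 [5.45, 16.1]. Its summit lay in an intron, 14053 bp downstream of the canonical TSS and 5842 bp from the nearest TSS of NADK. By pileup it stood at percentile 3.57 of the BMAL1 list and by fold enrichment at percentile 44.8.

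The NADK BMAL1 peak held no CACGTG, and its only element was the CATGTG printed above, 44 bp from the summit. The closest MAX peak, at chr1:1694507-1694866, was separated from it by 811 bp, with summits 1338 bp apart. That MAX peak held 12 fragments [6.20, 21.0] and reached 5.08 [2.62, 8.87] in fold enrichment with a -log10 p-value of 5.89, at percentile 1.37 of the MAX list. A stronger MAX peak at chr1:1714237-1714668 held 17 fragments [9.90, 27.2] with a fold enrichment of 7.99 [4.65, 12.8], 4491 bp upstream of the canonical TSS and 2504 bp from the nearest TSS. It held a CACGTT 114 bp and a CACATG 52 bp from the summit, and no CACGTG.

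Of the 2 BMAL1 peaks, 1 overlapped a MAX peak (50.0% [9.45, 90.5]), where 84.1% of all 756 BMAL1 peaks did. Among the 13 MAX peaks, an overlap with BMAL1 was present at 1 (7.69% [1.37, 33.3]), where 4.67% of all MAX peaks did. Both whole-list shares lay within these wide intervals. The canonical NADK promoter and an intron of NAMPT are shown next because each held an E-box with 12 bases on either side and no listed peak of either factor.
NADK promoter E-box in no listed peak, chr1:1709934-1709963: cgcgctgccgcgCACGTGgggcgtcccgcg
NAMPT intronic E-box in no listed peak, chr7:105913317-105913346: gtttaatgctgcCACGTGcttctgctaaga

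The NADK E-box stood 40 bp upstream of the canonical TSS in a promoter of 80.5% GC with 94 CpG, the highest of the 10 genes. SIRT1 and NADK were the 2 genes with CACGTG in the 601 bp around the canonical TSS, and SIRT1 had a MAX peak there while NADK had none. Among 19819 canonical promoters of protein-coding genes 12.6% held CACGTG, 10.1% CACGTT or AACGTG, 24.1% CACGCG or CGCGTG and 14.7% CATGTG or CACATG. A MAX promoter peak was listed for 52.9% of the genes with CACGTG there and for 31.6% of those without, and a BMAL1 promoter peak for 7.69% and 0.785%.

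Most E-boxes near the 10 genes lay in no listed peak. Their windows held 113 copies of CACGTG, of which 7 (6.19%) lay in a MAX peak and 1 (0.885%) in a BMAL1 peak, the shared site at NAPRT. Over the windows of all protein-coding genes the shares of 165802 copies were 2.51% and 0.443%. The 7 copies were 4 in the NAPRT window, 2 at SIRT1 and 1 at NMNAT2. Of the 4, only the copy at the shared site lay in a peak nearest to NAPRT among protein-coding genes. The others lay in the peaks nearest to GSDMD and EEF1D. At NMNAT1, with 13 copies, and NADK, with 15, none lay in a peak.

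**Figure D4:**
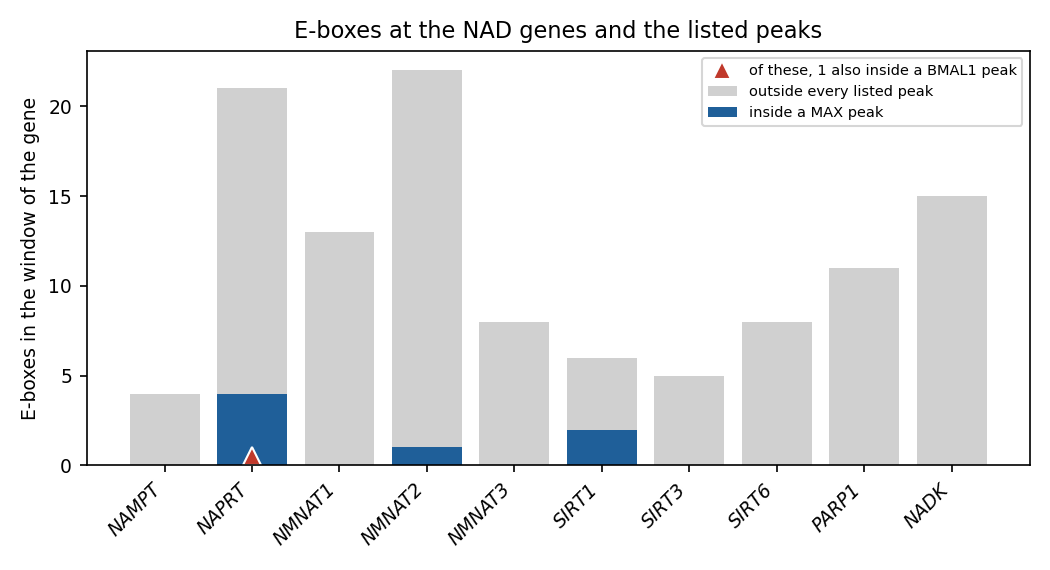
Number of E-boxes (CACGTG) in the window of each gene, split into those inside a MAX peak (blue) and those outside every listed peak (grey), with a red triangle where 1 of the blue ones was also inside a BMAL1 peak. Blue parts are present at NAPRT (4 of 21), NMNAT2 (1 of 22) and SIRT1 (2 of 6), and the other 7 bars are grey throughout.

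Per length of window, MAX peaks numbered 15.7 per Mb [8.37, 26.9] at the 10 genes and 7.42 per Mb over all protein-coding genes, and BMAL1 peaks 2.42 per Mb [0.293, 8.73] and 0.394 per Mb. The windows of the 10 genes ran from 43064 to 190144 bp with a median of 68583 bp, where the median over all genes was 56151.5 bp. Of the 13 MAX peaks, 5 stood in the window of NAPRT alone, and peaks in 1 window are not independent of each other. Of these 5, all but the shared peak lay nearest to TSSs of GSDMD, EEF1D or TIGD5. The density over all genes lay below the interval of the 10 genes for MAX and within it for BMAL1. The count of 13 became 24 with windows of 50 kb, 9 with windows of 5 kb and 7 with peaks of p of 1e-12 or lower. It was also 9 when a summit counted only where the nearest protein-coding TSS was the gene's own. No density was computed for these counts, so whether the MAX difference remains without the peaks nearest to other genes was not tested.

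The wider NAD pathway was read through 44 other genes in 5 lists, which were chosen by function. MAX peaks were assigned to 27 of the 44 (61.4% [46.6, 74.3]) and MAX promoter peaks to 16 (36.4% [23.8, 51.1]), against 70.0% and 40.0% for the 10 genes and 54.9% and 33.8% for all protein-coding genes. Per length the 44 genes had 12.7 MAX peaks per Mb [9.26, 17.1]. The intervals of the 44 genes overlapped those of the 10 genes. Both shares of all genes lay within the share intervals of the 44 genes. The 7.42 MAX peaks per Mb over all genes lay below their density interval, as was so for the 10 genes.

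By role, the 5 lists gave these counts of genes with a promoter MAX peak, whose wide intervals all overlapped and all held the 33.8% of all protein-coding genes. Among the other enzymes of NAD synthesis, of the kynurenine, nicotinic acid and riboside routes, 1 of 12 had one [1.49, 35.4], and among the hydrolases and clearance enzymes such as CD38 0 of 7 did (upper limit 35.4%). Among the other sirtuins 3 of 4 did [30.1, 95.4], namely SIRT2, SIRT4 and SIRT5, and SIRT7 had peaks elsewhere in its window. Among the other ADP-ribosyltransferases 8 of 15 did [30.1, 75.2], and among the genes of NADP synthesis, NAD transport and NAD repair 4 of 6 did [30.0, 90.3].

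The 3 highest promoter peaks of MAX among the 44 genes were at NADK2, the mitochondrial NAD kinase, with a fold enrichment of 21.33 [14.5, 30.3], at PARP3 with 17.73 [12.9, 23.8], and at PARP2 with 16.92 [11.2, 24.5]. Both PARP genes encode DNA-damage-dependent relatives of PARP1. The NADK2 peak and the NAMPT peak were close in size, with overlapping intervals. The mitochondrial and the cytosolic NAD kinase thus differed in the files, as NADK2 had a MAX peak 68 bp from its TSS and NADK had none at a promoter.

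A BMAL1 peak was assigned to 1 of the 44 genes, PARP3 (2.27% [0.402, 11.8]), against 4.99% of all protein-coding genes, which lay within the interval. The E-box of this site is shown because it lay near both summits.
PARP3 and RRP9 E-box in both peaks, chr3:51975908-51975937: ggccgcagaactCACGTGgcagctgaaccc

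The BMAL1 peak at chr3:51975632-51976460 held 49 fragments with a fold enrichment of 17.26 [12.8, 22.8], and the MAX peak at chr3:51975568-51976586 held 44 fragments with 17.73. Their summits were 22 bp apart, and the E-box stood 8 bp (BMAL1) and 14 bp (MAX) from them. Both summits lay 11 bp from a TSS of RRP9, a ribosomal RNA processing gene read in the opposite direction, and 430 bp and 452 bp upstream of the nearest PARP3 TSS. Compared with the NAPRT site, both fold enrichments at PARP3 were higher, with the BMAL1 intervals [6.71, 12.8] and [12.8, 22.8] meeting at their ends and the MAX intervals not overlapping.

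**Figure D5:**
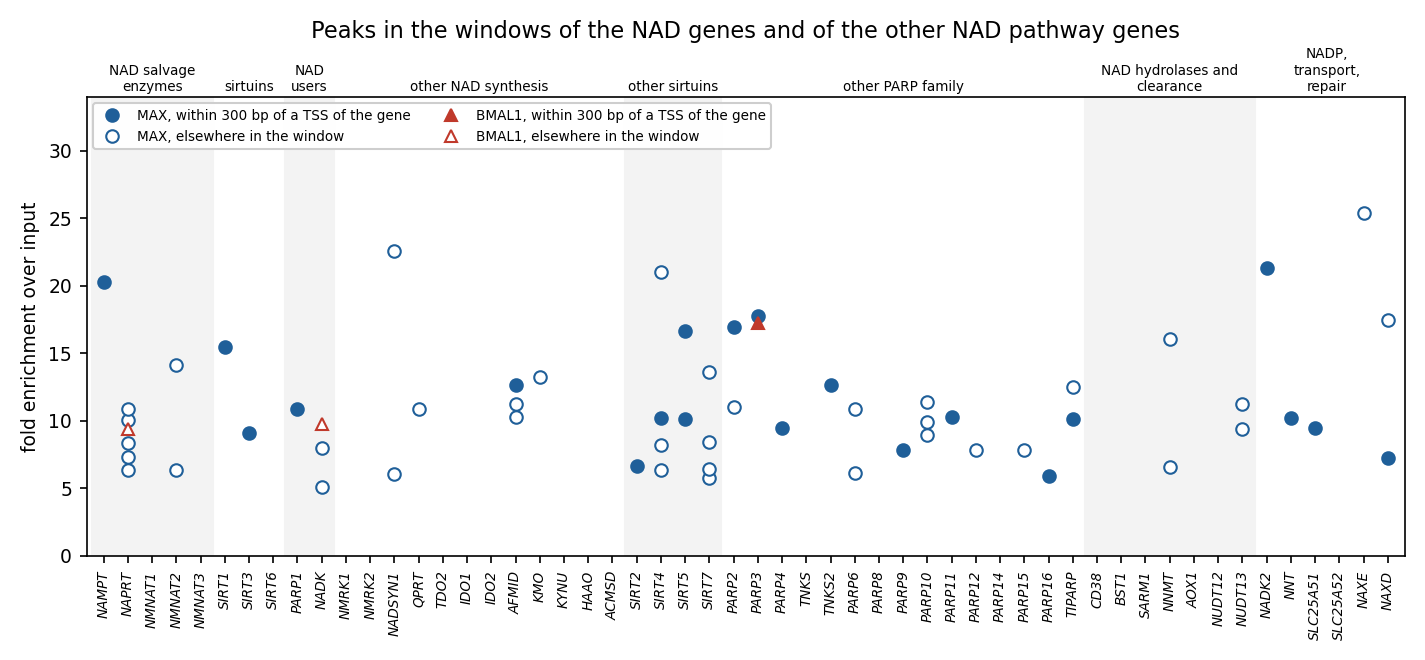
Fold enrichment over input of every MAX peak (blue circles) and BMAL1 peak (red triangles) in the windows of the 10 genes (left 3 lists) and of the 44 other genes (right 5 lists), filled where the peak comes within 300 bp of a TSS of the gene and open elsewhere. BMAL1 symbols appear at NAPRT, NADK and PARP3 alone, and the filled MAX symbols reach 20.27 at NAMPT and 21.33 at NADK2.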

How the data were processed

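Chromatin of MDA-MB-231 cells was immunoprecipitated for BMAL1 or MAX and sequenced, with 1 library each and 1 input library. Per the submitters' processing notes, reads were aligned with BWA 0.6.2 on hg19 and processed with SAMtools, and peaks were called with MACS2 2.0.9, separately for each antibody against the same input. For each peak the authors deposited the pileup (the coverage of 300 bp extended fragments at the summit, not scaled by depth), the fold enrichment as the ratio of pileup to the local background, and the -log10 p-value and -log10 q-value. The background printed here is pileup divided by fold enrichment. Per the file headers the caller was run with p of 1e-05 or lower and at most 2 (BMAL1) or 1 (MAX) tags per position, while the methods name a stricter cutoff of 1e-08. All listed peaks were used. Heights therefore depend on depth. The duplicate limit changed them little, as BMAL1 had 13866783 tags before and after it, and MAX 11545974 before and 11545865 after. A site without a listed peak is one that did not pass the caller's cutoff at 13866783 BMAL1 and 11545865 MAX tags.

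Peaks were assigned by summit to gene bodies plus 20 kb around every TSS, with GENCODE release 44 mapped to GRCh37. Promoter peaks shared at least 1 bp with 300 bp on either side of a TSS, and overlap of the lists was counted at 1 bp or more. The same rules were applied to all 20098 protein-coding genes. Elements were searched in the 200 bp centred on the summit. Intervals are 95% exact Poisson intervals of pileups and counts and Wilson intervals of shares. PCR copies are not marked in the peak lists. The Poisson intervals cover counting error only, and the Wilson intervals treat the counted genes or peaks as independent draws. No test was made, since each antibody had 1 library.

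The members and lists were chosen with earlier results of these data known. Named genes were the 10 members with all their peaks and the protein-coding gene with the TSS nearest each peak. Also named were the genes of the other NAD lists with a BMAL1 peak, and the 3 of those lists with the highest MAX fold enrichment at a promoter. Other sirtuins, CD38 and the neighbours nearest to genes without a peak were named after their values were seen. Alternatives covered the window, the TSS set, the promoter rule, the p-value, the overlap rule and the element, and the search for all 4 kinds of element was added after the data were seen. Peak assignment and element search were tested on simulated data. Scripts ran in Python 3.11.15 with pysam 0.24.0, scipy 1.17.1, pandas 2.3.3 and numpy 2.4.6, and plots were drawn with matplotlib 3.10.9.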

Additional observations from a re-analysis of the deposited data

How the results depend on the processing

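Of 65 alternatives, 55 left the value within 1.5 times the reported count or within the interval of the reported share. This is a loose measure. The BMAL1 peaks and the genes with one gave the same counts, and the share intervals rest on 2 or 13 peaks and are wide. Peaks with p of 1e-12 or lower left 7 MAX peaks and 1 BMAL1 peak at 1 of the 10 genes, NAPRT, with NADK lost. Under that cutoff the remaining BMAL1 peak made 100.0% with CACGTG and, with both lists cut, 100.0% overlapping a MAX peak, where the reported shares were 50.0%. A window of 50 kb gave 24 MAX peaks in place of 13. A window of 5 kb gave 9, as did counting only summits whose nearest protein-coding TSS was the gene's own, and both were within 1.5 times. A promoter of 1 kb gave 1 gene with a BMAL1 promoter peak, NAPRT, in place of 0. Searching 100 bp at the summit left 0 BMAL1 peaks with CACGTG (0%), and all 4 kinds of element, an alternative added after the data were seen, gave 100.0%. Counting a summit only at its nearest protein-coding TSS left 0 of the 44 other NAD genes with a BMAL1 peak in place of 1. At p of 1e-08 or lower, the cutoff the methods name, both genes with a BMAL1 peak were retained. The 13 MAX peaks became 12 under it, with the intronic MAX peak of NADK lost. The BMAL1 statements thus rest on 2 peaks, and 1 of them, at NADK, holds 15 fragments. Across the alternatives the 10 genes had a MAX peak at 5 to 8 genes and a MAX promoter peak at 3 to 6. No paired analysis was possible because each antibody had 1 library and no replicate. Depth limits the lists to pileups of at least 12 fragments for BMAL1 and 9 for MAX, so weaker binding at NAMPT, SIRT1 or the other genes was not detectable.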

Other observations

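Several MAX peaks counted for the other NAD genes stood at promoters of neighbouring genes. The 44 peaks made 45 pairs of a gene and a peak, as 1 peak lay in the windows of both PARP9 and PARP15. In 25 of the 45 pairs the nearest TSS of any protein-coding gene was that of the NAD gene itself. Noncoding genes were not counted, and the SIRT4 peaks 9998 bp and 9513 bp from a SIRT4 TSS had TSSs of RNU4-1 and RNU4-2 within 1 kb. The highest in the window of NAXE, an NADPH repair enzyme, reached a fold enrichment of 25.38 and lay 9 bp from a TSS of GPATCH4. In the window of NADSYN1, the last enzyme of NAD synthesis from nicotinic acid, a MAX peak reached 22.56 and lay 168 bp from a TSS of DHCR7, an enzyme of cholesterol synthesis. In the window of KMO, an enzyme of the kynurenine route, the peak of 13.25 lay 3 bp from a TSS of FH, the fumarase gene. A MAX peak in the window of SIRT4, a mitochondrial sirtuin, reached 21.03 at 13970 bp from a SIRT4 TSS. Its nearest protein-coding TSS was that of PLA2G1B, at 8243 bp. It held 58 fragments, the most of any peak assigned to the 54 NAD genes. These genes were chosen after their values were seen.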
